A study of Mus musculus with 51 samples.

Results

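The mammalian circadian clock genes of the mammary gland (MG) were followed here: Per1, Per2, Per3, Dbp, Tef, Nr1d1, Nr1d2, Clock, Npas2 and Arntl, the last also known as Bmal1. Members were all probe sets, the groups of short probes that each report 1 transcript on the array, that were annotated to 1 of these 10 symbols alone. They were 16 of the 22626 probe sets on the array and covered 9 of the 10 genes. No such probe set was found for Nr1d1, which was not analysed here. Values are log2 expression values, so levels are comparable between arrays for 1 probe set but not between probe sets.

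The 43 MG arrays came from 1 virgin female mouse each, with the 4th pair of glands taken and the inguinal lymph nodes removed. BALB/c, the strain sensitive to radiation-induced mammary cancer, and C57BL/6, the resistant strain, received 4 weekly whole-body X-ray fractions from 8 weeks of age, and glands were collected 4 hr or 1 month after the last fraction. The low dose (LD) was 7.5 cGy per fraction, the high dose (HD) was 1.8 Gy per fraction, and sham mice were handled without irradiation. BALB/c groups held 3 sham, 4 LD and 4 HD arrays at 4 hr, and 3 sham, 2 LD and 4 HD arrays at 1 month. C57BL/6 had 3 sham, 4 LD and 4 HD arrays at 4 hr, and 4 sham, 4 LD and 4 HD arrays at 1 month. Each strain lay on 1 array plate of its own. The hour of the day at which glands were collected is not in the labels.

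In the clock loop, ARNTL pairs with CLOCK, or with its close relative NPAS2, and the pair binds E-box sequences to switch on the Per genes, Dbp, Tef and the Nr1d genes. The PER proteins then repress that pair, and the NR1D proteins (REV-ERB nuclear receptors) repress Arntl, Npas2 and Clock through ROR elements. In mouse tissues the transcripts of Arntl, Npas2 and Clock therefore run roughly opposite in phase to those of Dbp, Tef, Nr1d1, Nr1d2 and Per3 over the day, and Per1 and Per2 peak somewhat later than Dbp. DBP and TEF are PAR bZIP transcription factors that bind D-box sequences. Per1 also responds quickly to stress hormones and to cyclic AMP signals.

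The letters of these elements were looked up in RefSeq promoter windows (GRCm38.p6, from 250 bases before to 50 bases after a gene start, both strands). Of the 10 genes, 9 had a window (14 windows in all), and 5 genes held at least 1 match. The windows of Dbp, Nr1d2, Clock and Npas2 held none of the letters searched. The 5 windows below are those of measured genes that held a match, and capitals mark the match. An E-box, CACGTG, was in 1 of the Per1 windows (chr11:69098699-69098998, plus strand, first base at −166 from the start). It was also in both windows of Tef (chr15:81802423-81802722, at −127, and chr15:81811164-81811463, at −138, plus strand). The D-box letters TTANGTAA were found at −205 and −158 in Per3 (chr4:151044616-151044915, minus strand). The ROR element letters TAGGTCA were at 31 in 1 of the Arntl windows (chr7:113207261-113207560, plus strand). Over all 32851 windows, 7.15% held the E-box, 2.32% the D-box and 2.61% the ROR element, and none of the member windows held the CRE letters TGACGTCA, found in 1.79%. The E′-box letters CACGTT, in 4.68% of windows, matched only in Nr1d1 among the members. A match is a description of the letters and does not show that a factor binds.
Per1: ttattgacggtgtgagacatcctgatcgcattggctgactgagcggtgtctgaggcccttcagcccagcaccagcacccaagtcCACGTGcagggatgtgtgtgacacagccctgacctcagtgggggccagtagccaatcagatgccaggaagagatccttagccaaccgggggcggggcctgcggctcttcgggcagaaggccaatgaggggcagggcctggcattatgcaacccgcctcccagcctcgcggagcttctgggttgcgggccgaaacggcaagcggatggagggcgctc
Tef, first window: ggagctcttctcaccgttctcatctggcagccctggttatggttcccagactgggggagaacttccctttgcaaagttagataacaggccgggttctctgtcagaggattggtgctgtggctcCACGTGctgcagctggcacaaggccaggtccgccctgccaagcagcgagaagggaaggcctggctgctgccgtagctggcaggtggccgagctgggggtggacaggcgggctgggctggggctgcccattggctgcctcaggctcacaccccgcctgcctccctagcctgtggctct
Tef, second window: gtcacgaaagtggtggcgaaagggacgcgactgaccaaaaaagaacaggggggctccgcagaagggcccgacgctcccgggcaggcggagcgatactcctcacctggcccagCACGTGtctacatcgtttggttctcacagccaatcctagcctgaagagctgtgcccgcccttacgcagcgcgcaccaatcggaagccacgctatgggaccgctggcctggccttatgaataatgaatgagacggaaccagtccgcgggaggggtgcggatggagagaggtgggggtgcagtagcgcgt
Per3: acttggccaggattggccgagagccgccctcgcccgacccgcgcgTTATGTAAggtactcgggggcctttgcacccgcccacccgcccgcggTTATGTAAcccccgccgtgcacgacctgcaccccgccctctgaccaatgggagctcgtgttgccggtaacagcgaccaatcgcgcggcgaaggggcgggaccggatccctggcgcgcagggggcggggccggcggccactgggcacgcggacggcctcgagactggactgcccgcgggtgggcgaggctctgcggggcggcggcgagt
Arntl: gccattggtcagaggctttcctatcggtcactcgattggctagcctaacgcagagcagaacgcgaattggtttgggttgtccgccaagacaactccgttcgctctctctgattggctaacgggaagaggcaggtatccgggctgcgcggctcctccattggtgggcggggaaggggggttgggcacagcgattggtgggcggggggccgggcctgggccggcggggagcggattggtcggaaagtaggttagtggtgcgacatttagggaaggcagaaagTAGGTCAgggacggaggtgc

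The arrays as a whole were alike, with correlations between any pair of MG arrays of 0.958 to 0.995. Cell types of the gland were read by marker lists: the white adipocyte marker list averaged 11.79 to 12.65 and the luminal epithelium list 7.64 to 11.17 log2 units. These lists were not compared with another tissue. By p53 target genes, a check of the dose labels, 12 of 16 genes were higher 4 hr after HD in BALB/c and 9 of 16 in C57BL/6, and 0 of 16 after LD. Of the 43 arrays, 10 stood apart by holding transcripts of muscle, brown fat, lymphocytes or skin over 2 log2 units above the median array, among them C57BL/6 sham 1 month replicate 2 (muscle, 5.71 above) and C57BL/6 HD 1 month replicate 3 (T cell, 2.25 above). The tissue was measured in bulk, so fewer cells of a type and less RNA per cell cannot be told apart.

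**Figure D1:**
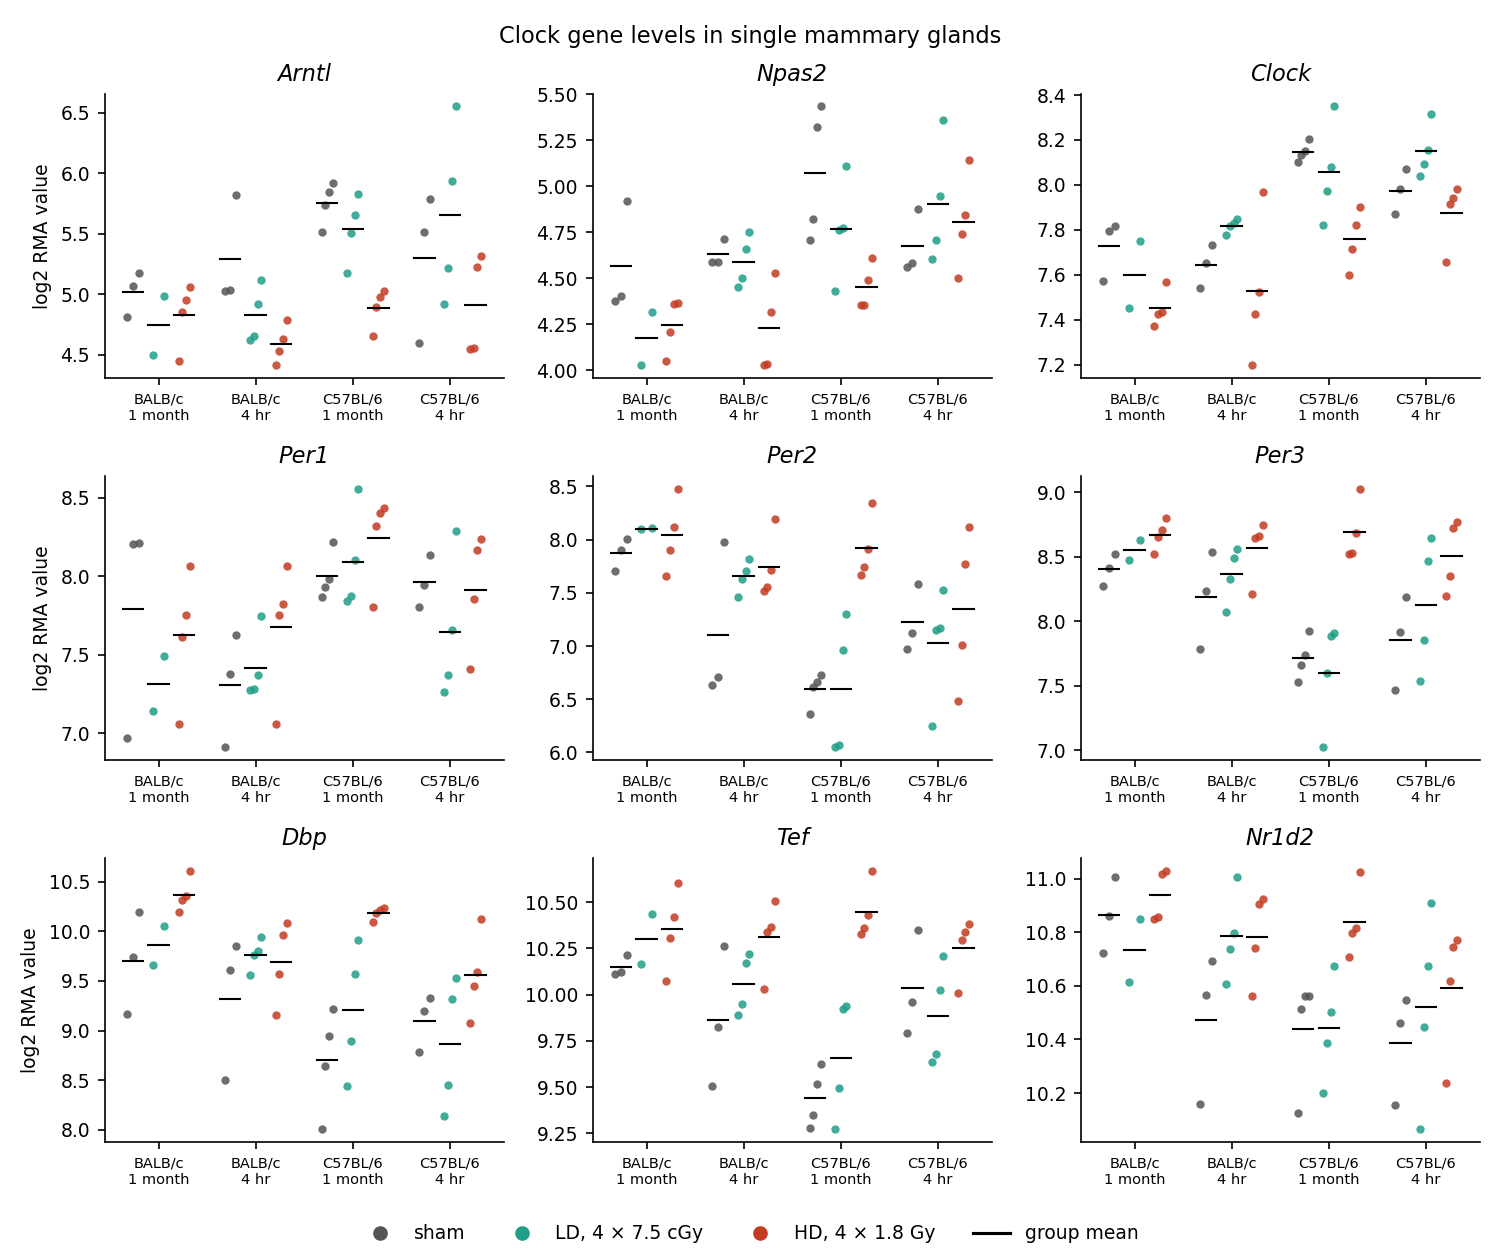
Log2 values of 9 clock genes in 43 single mammary glands, 1 panel per gene at its brightest probe set, by strain, time and treatment (points are arrays, bars are group means, and each panel has its own vertical scale). In C57BL/6 at 1 month, the 4 HD arrays sit above the 4 sham arrays for Dbp, Tef, Per2 and Per3 and below them for Arntl, Npas2 and Clock.

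The clearest difference was in C57BL/6 glands 1 month after HD. Transcripts of Tef, Dbp, Per3 and Nr1d2 were higher in HD than in sham glands, by 2.01-fold for Tef and 2.79-fold for Dbp, while Arntl, Npas2 and Clock had lower values that did not pass the test. All 11 probe sets of Per1, Per2, Per3, Dbp, Tef and Nr1d2 had positive log2 fold changes and all 5 of Arntl, Npas2 and Clock had negative ones. At an adjusted p under 0.05 (limma, Benjamini-Hochberg over all 22626 probe sets), 5 of the 16 member probe sets were higher and 0 lower, against 0.915% of all probe sets called. The median log2 fold change of the 16 was 0.39, against 0.00018 for all probe sets. By the thresholds of the study for HD (a change of over 0.58 log2 units in either direction, with p under 0.01 before adjustment), 7 were higher and 2 lower, against 1.87% of all probe sets.

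Among the output factors, Dbp was at 10.21, 10.23, 10.19 and 10.09 in the HD glands, against 8.00, 8.94, 8.64 and 9.21 in the sham glands of C57BL/6 at 1 month. The HD values were tightly grouped (SD 0.06, n = 4) and lay above every sham value (SD 0.52, n = 4). The log2 fold change was 1.48 ± 0.32 (SE), with a limma adjusted p of 0.0391. Tef, at its brighter probe set 1424175_at, had 10.67, 10.43, 10.33 and 10.36 in HD and 9.28, 9.35, 9.51 and 9.63 in sham glands, again with no overlap. Its log2 fold change was 1.01 ± 0.16 (limma adjusted p = 0.010), and 1450184_s_at, the other Tef probe set, gave 1.30 ± 0.19 (limma adjusted p = 0.00975). Those are the largest ratios of change to standard error among the members.

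Among the repressors, Per3 at 1421087_at read 9.03, 8.53, 8.68 and 8.52 in HD and 7.53, 7.66, 7.93 and 7.74 in sham glands, a log2 fold change of 0.98 ± 0.23 (limma adjusted p = 0.0463). Its other probe sets gave 0.68 (adjusted p = 0.0755) and 0.19 (adjusted p = 0.343) in the limma fit. Per2 at 1417602_at was at 8.35, 7.74, 7.91 and 7.67 in HD and 6.36, 6.61, 6.73 and 6.67 in sham glands. The Per2 groups did not overlap, yet the log2 fold change of 1.32 ± 0.32 just missed the threshold (limma adjusted p = 0.0524). Per1 at 8.43, 8.41, 8.32 and 7.80 in HD and 7.98, 7.93, 8.22 and 7.87 in sham glands overlapped and gave 0.24 ± 0.21 (limma adjusted p = 0.611). Of the Nr1d2 probe sets, 1416959_at passed (0.58 ± 0.14, limma adjusted p = 0.0480) and the brighter 1416958_at did not (0.40 ± 0.16, adjusted p = 0.195). At 1416958_at the HD glands read 11.03, 10.80, 10.82 and 10.71 and the sham glands 10.13, 10.56, 10.51 and 10.56, so the HD values were all above.

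Among the activators, Arntl was at 4.65, 5.03, 4.89 and 4.98 in HD and 5.84, 5.74, 5.52 and 5.92 in sham glands. The groups did not overlap, but the log2 fold change of −0.87 ± 0.29 did not pass the test (limma adjusted p = 0.126). Clock at 1418659_at was at 7.82, 7.72, 7.60 and 7.90 in HD and 8.10, 8.20, 8.13 and 8.15 in sham glands, −0.39 ± 0.10 (limma adjusted p = 0.0652). Npas2 at 1421037_at was at 4.35, 4.35, 4.61 and 4.49 in HD and 5.32, 4.82, 5.43 and 4.71 in sham glands, −0.62 ± 0.18 (limma adjusted p = 0.0864). For each of these 3 genes every HD value was below every sham value. In all, 13 of the 16 member probe sets had groups that did not overlap (9 higher, 4 lower), against 10.4% of all probe sets.

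**Figure D2:**
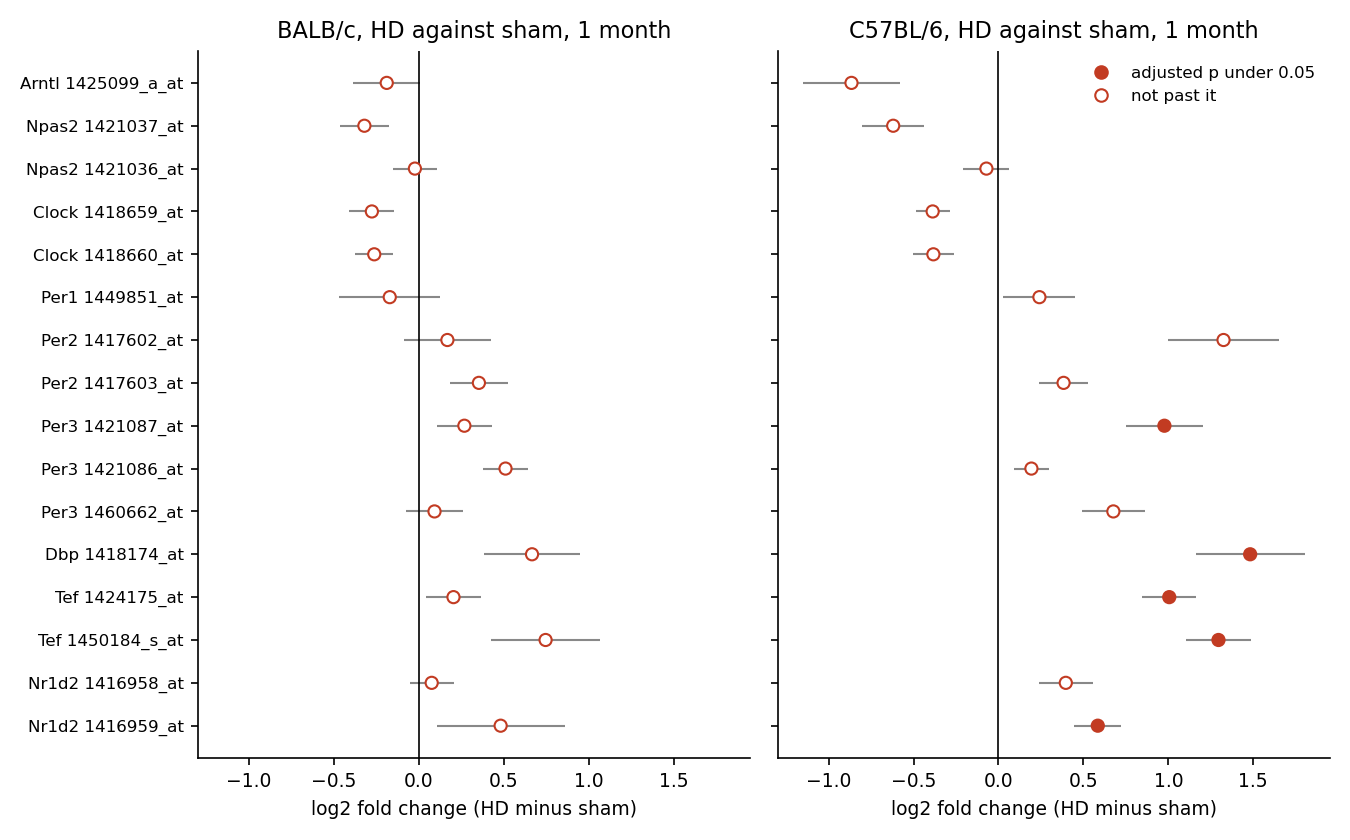
Log2 fold change of HD minus sham at 1 month (horizontal axis) for each of the 16 member probe sets, in BALB/c (left) and C57BL/6 (right). Circles are limma estimates, bars are ± 1 standard error, and filled circles passed an adjusted p of 0.05. The 5 filled circles, all in C57BL/6, belong to Tef, Dbp, Per3 and Nr1d2.

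These calls rested on few arrays. Both Tef probe sets passed with any 1 of the 8 arrays left out (limma adjusted p 0.0128 to 0.0347), while Dbp passed only without sham replicate 4 (adjusted p 0.0222, against up to 0.119 otherwise). The count of 5 became 2 without any 1 HD array or without sham replicate 1 or 3, 3 without sham replicate 2, and 6 without sham replicate 4. Without the arrays that stood apart, 1 of them in each of the 2 groups, no probe set of any gene passed, and the log2 fold changes were 1.56 for Dbp (adjusted p = 0.0755), 1.01 for Tef 1424175_at (0.0537) and 0.96 for Per3 1421087_at (0.0961) in the limma fit.

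Luminal epithelium and myoepithelium markers moved with the same contrast. The luminal list averaged 9.80 to 10.25 in C57BL/6 HD glands and 10.27 to 11.17 in sham glands at 1 month, with 0 of 11 genes past the test. The myoepithelium list averaged 8.23 to 8.75 in HD and 8.72 to 9.42 in sham glands (0 of 8 called), and the white adipocyte list 12.27 to 12.62 in HD and 11.79 to 12.32 in sham glands (1 of 7 higher). The plate column also went with treatment, with HD 1 month arrays in columns 9 to 12 and sham 1 month arrays in columns 1 to 5 of both strains. With the column as a covariate 0 of the 16, and 0 of all 22626 probe sets, were called. The C57BL/6 LD 1 month arrays lay in columns 5 to 8. Mean Dbp in C57BL/6 at 1 month was 8.70 in sham, 9.20 in LD and 10.18 in HD glands. C57BL/6 LD 4 hr arrays lay in columns 9 to 12, as the HD 1 month arrays did, and had Dbp at 8.14, 9.53, 8.45 and 9.32. The first of these was in an array that stood apart by brown fat transcripts (2.14 above the median array). The part of the marker list shifts in the HD difference was not tested, and treatment and plate column can hardly be told apart. The hour of collection is not in the labels, so a difference in hour between groups cannot be told apart from treatment either.

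The low dose at the same time served as a comparison that leaves out the sham glands. Between HD and LD glands of C57BL/6 at 1 month, 0 of the 16 probe sets passed (0% of all probe sets did), although 11 had an unadjusted p under 0.05 against 9.18% of all. Groups did not overlap for 9 (7 higher, 2 lower), against 5.12% of all probe sets. The limma log2 fold changes were 1.32 ± 0.32 for Per2 (adjusted p = 0.223), 1.09 ± 0.23 for Per3 1421087_at (0.133), 0.98 ± 0.32 for Dbp (0.383) and 0.79 ± 0.16 for Tef 1424175_at (0.132). LD glands were spread widely: Dbp was at 8.89, 9.57, 8.44 and 9.91, and Arntl at 5.65, 5.51, 5.83 and 5.17. Against sham, LD glands of C57BL/6 at 1 month had 0 members called (0% of all probe sets, and 0 against 1.72% by the study's thresholds for LD, an unadjusted p under 0.1 with the same fold minimum), and 1 had an unadjusted p under 0.05, against 12.8% of all. The limma estimates were 0.50 ± 0.32 for Dbp (adjusted p = 0.521) and 0.56 ± 0.19 for Tef 1450184_s_at (0.245).

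In BALB/c glands 1 month after HD, no member passed (0 of 16, against 0.0177% of all probe sets, and 0 against 1.34% by the study's thresholds), and 5 had an unadjusted p under 0.05, against 10.6% of all probe sets. Dbp was at 10.31, 10.36, 10.20 and 10.61 in HD and 10.20, 9.75 and 9.17 in sham glands, with HD replicate 3 and sham replicate 1 level at 10.20. The log2 fold change was 0.67 ± 0.28 (limma adjusted p = 0.409). Of these HD arrays, replicate 1 (B cell, 3.16, and T cell, 3.55 above the median array) and replicate 3 (muscle, 3.45 above) stood apart. Tef 1424175_at read 10.31, 10.42, 10.08 and 10.61 in HD and 10.12, 10.22 and 10.11 in sham glands, 0.20 ± 0.16 (limma adjusted p = 0.673). The BALB/c sham glands were all above the C57BL/6 sham glands of 1 month for Tef. The largest limma estimate among the members after HD in BALB/c at 1 month was 0.75 log2 units, for Tef 1450184_s_at. The luminal list averaged 8.77 to 9.73 in these HD and 10.20 to 10.43 in these sham glands, with 0 of 11 genes past the test. The direct test of the strain difference in the HD response at 1 month gave −0.80 ± 0.23 for Tef 1424175_at (limma adjusted p = 0.711), −1.16 ± 0.44 for Per2 (0.908) and −0.82 ± 0.45 for Dbp (0.916). All 4 such tests, HD and LD at each time, called 0 members and 0% of all probe sets, so a difference between strains in the response was not shown. At an unadjusted p under 0.05, the HD 1 month test had 4 of the 16 members, against 5.36% of all probe sets. LD glands of BALB/c at 1 month, with 2 arrays, had 0 members called against sham (0%, and 0 against 1.1% by the study's thresholds) and HD against LD had 0 (0.00884%). At an unadjusted p under 0.05, LD against sham had 1 member (6.92% of all probe sets) and HD against LD had 3 (11.7%).

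At 4 hr, single members passed in BALB/c. Arntl was at 4.63, 4.53, 4.41 and 4.78 in HD and 5.02, 5.82 and 5.03 in sham glands. The groups did not overlap and the log2 fold change was −0.70 ± 0.20 (limma adjusted p = 0.0462), 1 of 16 members against 5.14% of all probe sets. By the study's thresholds Arntl was again the only member, against 3.71%. The share of members called was close to the background in both. Without sham replicate 2, the highest Arntl value, the estimate was −0.44 (limma adjusted p = 0.228), and it passed only without sham replicate 3. HD replicate 1 (muscle, 6.8 above the median array) and sham replicate 1 (muscle, 2.68 above) stood apart. Without the arrays that stood apart the Arntl call was lost. Npas2 1421037_at (−0.40, adjusted p = 0.111), Tef 1424175_at (0.45, 0.111) and Per2 1417602_at (0.64, 0.157) did not pass in the same limma fit. Luminal markers were lower in the same contrast (9 of 11 called, median log2 fold change −1.60), and the part of that shift in the Arntl difference was not tested.

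HD against LD at 4 hr in BALB/c called Clock 1418660_at alone (6.91, 6.96, 7.07 and 7.02 in HD, 7.35, 7.30, 7.52 and 7.26 in LD glands), 1 of 16 against 7.42% of all probe sets. Its log2 fold change was −0.36 ± 0.10 (limma adjusted p = 0.0377), and it lost the threshold with any 1 of the 8 arrays left out (0.0609 to 0.0948). The brighter Clock probe set gave −0.29 (limma adjusted p = 0.154). The luminal list averaged 7.64 to 9.14 in these HD and 10.19 to 10.38 in these LD glands (10 of 11 genes lower), and its part in the Clock difference was not tested. LD against sham at 4 hr called 0 of 16 (0%), with 4 at an unadjusted p under 0.05 (9.52% of all probe sets). By the study's thresholds Nr1d2 1416959_at (0.71) and Tef 1450184_s_at (0.78) were higher, 2 of 16 against 1.5% of all probe sets. Those 2 probe sets read low together on the same BALB/c HD 4 hr array, replicate 2, at 5.21 and 5.56, where the brightest probe sets of the same genes did not.

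In C57BL/6 at 4 hr, HD against sham called 0 members (0.716% of all probe sets, and 0 against 1.82% by the study's thresholds), with 2 at an unadjusted p under 0.05 (13% of all). Nr1d2 1416959_at had the smallest limma adjusted p, 0.0792, at 0.58. Dbp read 10.13, 9.59, 9.45 and 9.08 in HD and 9.19, 9.33 and 8.78 in sham glands, so that the 4 hr groups overlapped where the 1 month groups did not. LD against sham called 0 (0%, and 0 against 0.345%), with 1 at an unadjusted p under 0.05 (4.94% of all). HD against LD called 0 (1.43%), with 5 unadjusted (18.3%). In the last contrast Arntl was −0.74 (limma adjusted p = 0.171) and Dbp 0.70 (0.25).

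Clock genes were also compared between times within a treatment. C57BL/6 sham glands had Tef 1450184_s_at at 5.66, 5.69, 5.42 and 6.10 at 1 month, against 6.73, 7.10 and 6.75 at 4 hr. This log2 fold change of −1.14 ± 0.21 passed (limma adjusted p = 0.0166), 1 of 16 members against 2.84% of all probe sets. Tef 1424175_at had 9.28, 9.35, 9.51 and 9.63 at 1 month and 9.96, 10.35 and 9.79 at 4 hr, −0.59 ± 0.17 (limma adjusted p = 0.0634). The Tef 1450184_s_at call was lost without sham 4 hr replicate 2 (adjusted p = 0.199), sham 1 month replicate 2 (0.0531) or sham 1 month replicate 3 (0.0551) in the limma fit. The brown adipocyte list moved with this contrast, at 6.97 to 7.74 at 1 month, against 9.37, 10.35 and 7.62 at 4 hr (2 of 6 genes lower), and sham 4 hr replicate 2 stood apart by it (2.87 above the median array). Without the arrays that stood apart no probe set of any gene passed, and the part of the brown fat shift in the Tef difference was not tested. The other 5 time contrasts called 0 members: C57BL/6 HD (1.15% of all probe sets), C57BL/6 LD (0%), BALB/c HD (2.27%), BALB/c LD (0%) and BALB/c sham (0%). Members with an unadjusted p under 0.05 numbered 0, 3, 1, 3 and 3 in that order, against 17.5%, 13.7%, 19.8%, 8.97% and 6.39% of all probe sets, so that the counts in both HD contrasts lay below the background.

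Between strains, sham glands of BALB/c and C57BL/6 differed at 0 members with both an adjusted p under 0.05 and the fold minimum (2.93% of all probe sets), and at 3 by adjusted p alone (9.14%). Clock 1418659_at was lower in BALB/c (−0.38 ± 0.06, limma adjusted p = 0.00281), and Per3 was higher at 1421087_at (0.51, adjusted p = 0.0349) and at 1460662_at (0.51, 0.0216). Dbp was 0.61 higher in BALB/c without passing (limma adjusted p = 0.167). Strain and plate cannot be told apart.

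Ordered by group means, Dbp was highest in BALB/c HD 1 month (10.37) and C57BL/6 HD 1 month (10.18) and lowest in C57BL/6 sham 1 month (8.70). Neighbours in this order overlapped in 10 of 11 cases, the exception being C57BL/6 HD 1 month and the next group, BALB/c LD 1 month. Arntl was highest in C57BL/6 sham 1 month (5.75), the group lowest in Dbp, and lowest in BALB/c HD 4 hr (4.59), and all 11 neighbour pairs overlapped. Tef ran from C57BL/6 HD 1 month (10.45) down to C57BL/6 sham 1 month (9.44), and Per2 from BALB/c LD 1 month (8.10) down to C57BL/6 sham 1 month (6.59). Per3 was highest in C57BL/6 HD 1 month (8.69) and lowest in C57BL/6 LD 1 month (7.60), and Per1 highest in C57BL/6 HD 1 month (8.24) and lowest in BALB/c sham 4 hr (7.30). Clock ran from C57BL/6 LD 4 hr (8.15) down to BALB/c HD 1 month (7.45), Npas2 from C57BL/6 sham 1 month (5.07) down to BALB/c LD 1 month (4.17), and Nr1d2 from BALB/c HD 1 month (10.94) down to C57BL/6 sham 4 hr (10.39). For these 7 genes no neighbouring groups were separate.

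Mice of the same group differed more in several of these genes than in most. The SD within groups of BALB/c was 0.41 for Dbp and 0.43 for Per1, higher than in 94.7% and 95.3% of all probe sets, and 0.28 for Arntl (85.7%). In C57BL/6 it was 0.50 for Dbp (97.1%), 0.50 for Per2 (97.2%) and 0.44 for Arntl (96.1%). Clock had less spread, at 0.18 in BALB/c (52.8%) and 0.14 in C57BL/6 (35.0%). In BALB/c, Nr1d2 1416958_at (0.17, 51.3%) and Npas2 1421037_at (0.20, 63.2%) were also nearer the typical spread. The whole range of Dbp within single treatment groups reached 8.44 to 9.91 in C57BL/6 LD 1 month and 8.14 to 9.53 in C57BL/6 LD 4 hr, spans close to the HD difference at 1 month.

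Within each strain, genes of opposite phase were then compared array by array. Of the 18 pairs of Arntl, Npas2 or Clock with Per1, Per2, Per3, Dbp, Tef or Nr1d2, 18 had a negative Pearson r over the 20 BALB/c arrays and 16 over the 23 C57BL/6 arrays. With a two-sided permutation test and Benjamini-Hochberg over all 36, 9 pairs passed in BALB/c and 15 in C57BL/6 (7 and 15 by Spearman's rho). After subtraction of group means, with permutation inside groups, 4 passed in BALB/c and 12 in C57BL/6 (4 and 10 by rho). Among mice given the same treatment the pattern was thus present in most pairs of C57BL/6 and in few of BALB/c. Each of the 15 pairs without Per1 was negative in both strains either way.

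Arntl and Dbp had r = −0.65 and rho = −0.47 in BALB/c (permutation adjusted p 0.0069 and 0.0584), and r = −0.80 and rho = −0.83 in C57BL/6 (0.00012 and 0.000144). Without the 2 arrays farthest from the median in Arntl, r was −0.36 in BALB/c, where the relation leaned on those arrays, and −0.74 in C57BL/6. As deviations from group means the r was −0.83 in BALB/c (permutation adjusted p = 0.00648) and −0.69 in C57BL/6 (0.0098). Arntl and Tef were alike in this, with r = −0.80 in BALB/c and −0.82 in C57BL/6. Clock and Dbp had r = −0.43 in BALB/c, where the pair did not pass (permutation adjusted p = 0.082), and −0.85 in C57BL/6. Per1 stood outside the pattern: its 6 pairs had r of −0.18 to 0.18 and none passed. With group means removed, Per1 and Arntl even had a positive r of 0.57 in C57BL/6 (permutation adjusted p = 0.052).

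**Figure D3:**
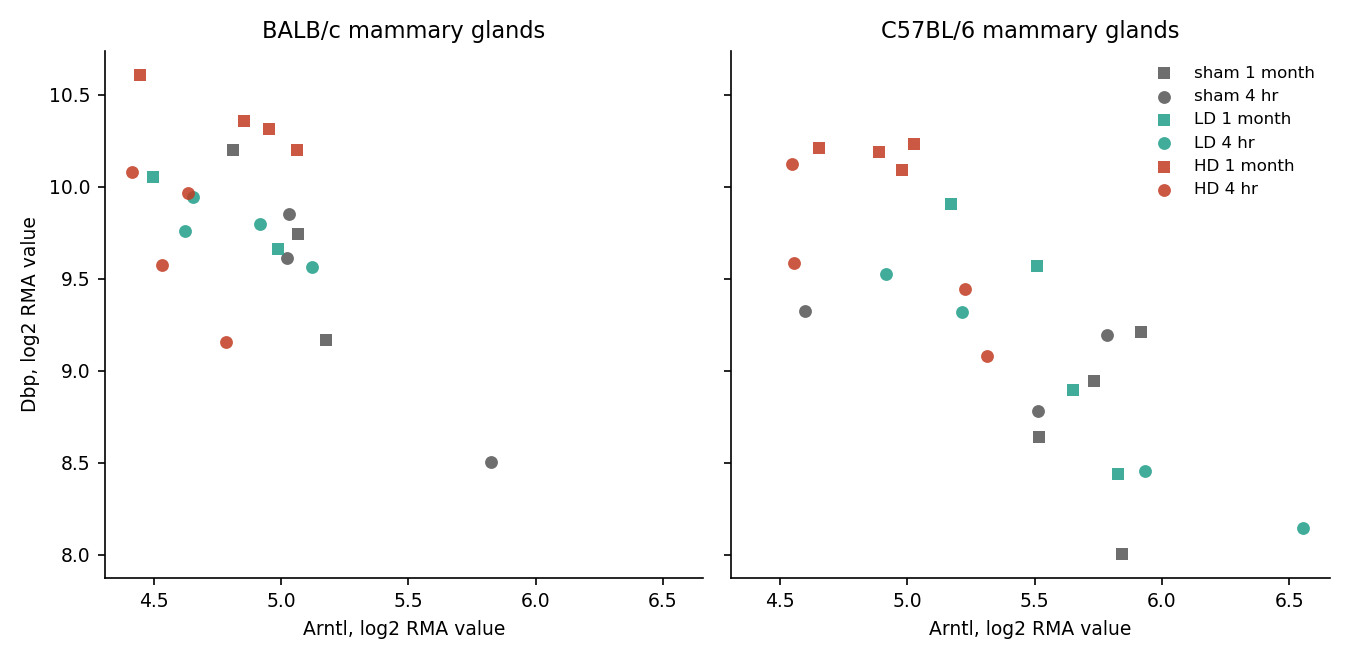
Dbp (vertical axis) against Arntl (horizontal axis) in log2 values, 1 point per mammary array, for 20 BALB/c (left) and 23 C57BL/6 arrays (right). Squares are 1 month and circles 4 hr, with colour for treatment. Arrays high in Dbp tended to be low in Arntl, less clearly in BALB/c than in C57BL/6. The 4 C57BL/6 HD 1 month squares lie together at the top left while the 4 sham 1 month squares lie at the lower right.

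**Figure D4:**
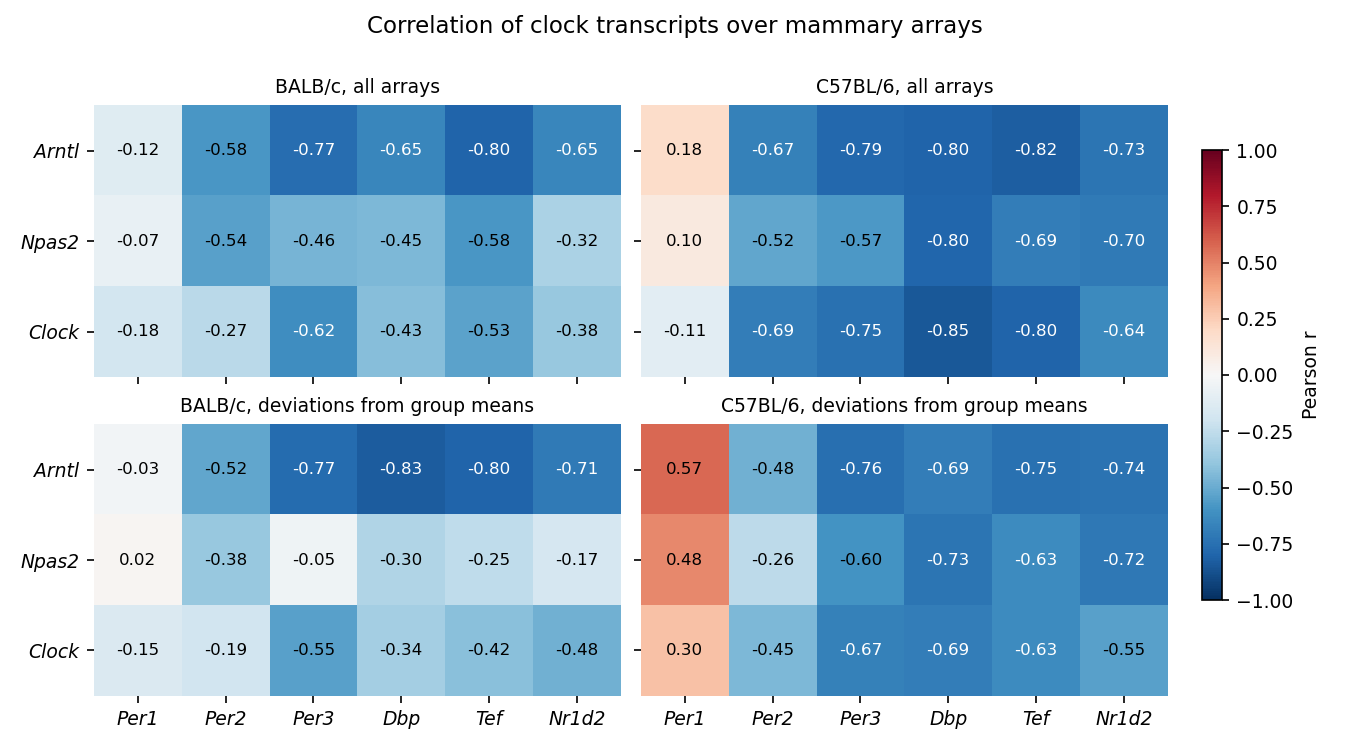
Pearson r of Arntl, Npas2 and Clock (rows) with 6 clock genes (columns) over mammary arrays, in BALB/c and C57BL/6, for all arrays (top) and for deviations from group means (bottom). Blue is negative and red positive. Every cell outside the Per1 column is negative in all 4 panels.

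The difference Dbp minus Arntl, given as a value with no test, is a compact sign of where an array stood in this pattern. In C57BL/6 at 1 month it was 2.16 to 3.30 in sham, 2.61 to 4.74 in LD and 5.11 to 5.56 in HD glands. HD glands were thus both higher and closer together than the others. At 4 hr it was 3.27 to 4.73 in sham, 1.59 to 4.61 in LD and 3.77 to 5.58 in HD glands of C57BL/6, all overlapping. In BALB/c it was 3.99 to 5.39 in sham, 4.67 to 5.56 in LD and 5.13 to 6.16 in HD glands at 1 month, and 2.68 to 4.82, 4.44 to 5.29 and 4.37 to 5.66 for sham, LD and HD at 4 hr. The lowest of all, 1.59, was in LD 4 hr replicate 1 of C57BL/6, which stood apart by brown fat transcripts. The labels give no hour of collection against which these values could be set.

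**Figure D5:**
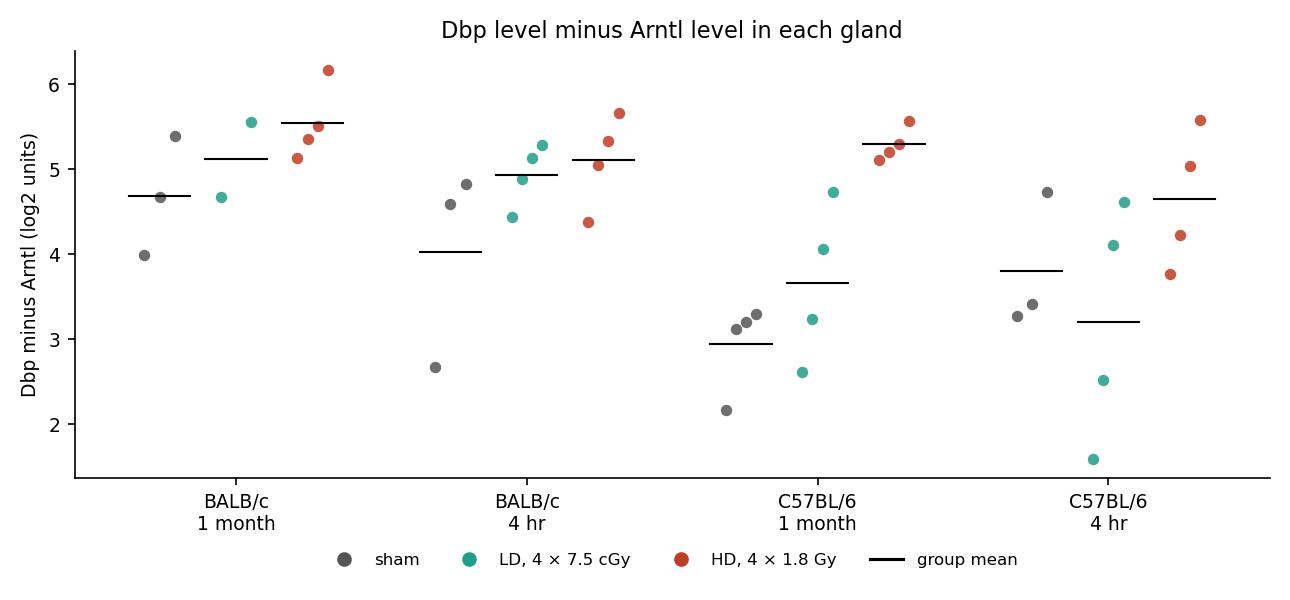
Dbp minus Arntl in log2 units (vertical axis) in each of the 43 mammary glands by strain, time and treatment (points are arrays, bars are group means). C57BL/6 HD 1 month glands span 5.11 to 5.56 and C57BL/6 sham 1 month glands 2.16 to 3.30.

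Probe sets of 1 gene did not always move together. Over the arrays of BALB/c and C57BL/6, the Per2 probe sets had r = 0.68 and 0.71, those of Clock 0.67 and 0.74, and those of Per3 between 0.59 and 0.85. The Tef probe sets had r = 0.36 in BALB/c and 0.88 in C57BL/6, and those of Nr1d2 0.30 in BALB/c and 0.69 in C57BL/6. Npas2 was weakest (0.14 in BALB/c, 0.46 in C57BL/6), and 1 of its probe sets, 1421036_at, gave the smallest change of the 16 after HD at 1 month in C57BL/6 (−0.07, limma adjusted p = 0.844). Nr1d2 1416959_at followed Tef 1450184_s_at in BALB/c (r = 0.84) more closely than its own gene's other probe set. Calls that rest on either of these dimmer probe sets alone did not pass at the brighter one, except that both Tef probe sets passed in C57BL/6 HD glands at 1 month. For Nr1d2 in that contrast, and for Tef between times in C57BL/6 sham glands, the brighter probe set changed in the same direction. Its groups did not overlap in either case.

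Genes whose level was most like that of Dbp were sought over the 43 MG arrays after removal of each strain's mean, among 11806 other genes. The 8 highest r were those of Nr1d2 (0.84), Tef (0.82), Per3 (0.78), Cpeb1 (0.77), Tspan4 (0.76), Hlf (0.76), Pank3 (0.73) and Per2 (0.72). Of these 8, 4 are members, and Hlf is the third PAR bZIP factor beside Dbp and Tef. The 8 lowest were those of Arntl (−0.76), Litaf (−0.68), Npas2 (−0.68), Clock (−0.67), Arhgap20 (−0.66), Tpcn2 (−0.64), Slc16a1 (−0.64) and Crybg3 (−0.63), 3 of them members. As deviations from group means, Nr1d2 kept 0.85, Tef 0.81, Per3 0.76 and Arntl −0.73, while Cpeb1 was at 0.57 and Litaf at −0.35. Of the 8 highest, 3 were again among the 8 highest by this measure, and 4 of the 8 lowest. Per1 had r = 0.02 to Dbp. These are descriptions over arrays that share groups, without a test.

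Other genes of the clock were read from a list of 16, of which 13 were measured. In C57BL/6 HD against sham glands at 1 month 2 passed, both higher, against 0.915% of all probe sets called. They were Hlf (1.33 ± 0.20, limma adjusted p = 0.00975) and Rora (0.54 ± 0.10, 0.0247), a nuclear receptor that activates Arntl through the ROR element. Cry2, a partner of the PER proteins, was at 0.58 (limma adjusted p = 0.0548), Cry1 at −0.07, and Nfil3, which represses through the D-box, at −0.27 (0.688). Of 7 measured clock-controlled output genes from a list of 10, 1 passed, Usp2, a ubiquitin protease (1.06 ± 0.22, limma adjusted p = 0.0309). Of 11 glucocorticoid target genes, measured from a list of 12, 0 passed and their median log2 fold change was 0.25. Without the arrays that stood apart, or with the plate column as a covariate, no probe set passed in this contrast. The Hlf, Rora and Usp2 calls were thus lost in both. In C57BL/6 sham glands at 1 month against 4 hr, the output genes Gys2, a glycogen synthase, and Usp2 were lower (−1.63 and −0.99, both past the limma threshold), and so was the glucocorticoid target Mt1 (−0.57). They came from the 7 output genes and 11 glucocorticoid target genes measured. Of all probe sets 2.84% were called in this contrast, 494 of those 643 lower. The Gys2, Usp2 and Mt1 calls too were lost without the arrays that stood apart, and brown adipocyte markers were lower in the same contrast, as given above for Tef.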

How the data were processed

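MG and blood RNA had been hybridised to 51 Affymetrix HT_MG-430A arrays, 1 mouse per array. The authors deposited log2 values after RMA (background correction, quantile normalisation and summary per probe set; version not given in the sources used here), and these were used as deposited. Array medians were 6.16 to 6.36 in MG and 4.61 to 4.70 in blood, so levels were not compared across tissues. The number of arrays limits the precision: the median standard error of the member probe sets was 0.17 in both strains at 1 month for HD against sham.

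Members and gene lists were chosen with earlier results of these data known. Probe sets with 1 gene symbol (18003), with several (287) and without a name (4336) were all tested, and symbols were updated by gene identifier for 17977. Each strain's MG arrays were fitted in 1 limma model of group means, the 13 sham arrays in another for the strain baseline, and all 43 for differences of responses, with Benjamini-Hochberg adjustment over 22626 probe sets. The 23 comparisons, the thresholds of the study and correlations with 100000 permutations (smallest possible p 1e-05) are given in the report. Named were all members, list genes past the threshold in a comparison described (at most 4 per list) and some further clock genes chosen after their values were seen, and the 8 genes most and least like Dbp. Where 1 probe set stands for a gene it is the brightest over MG arrays. The fits were tested on simulated data with known changes. Alternatives tried were each array left out (for the fits), a replicate block, fits of other samples, array weights, quantile normalisation, a filter on dim probe sets, the plate column, a trended robust variance, leaving out arrays with transcripts of another tissue, the mean of a gene's probe sets and deviations from group means. Fits were run with limma 3.58.1 in R 4.3.3, and correlations and figures with scipy 1.17.1, numpy 2.4.6, pandas 2.3.3 and matplotlib 3.10.9 in Python 3.11.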

Additional observations from a re-analysis of the deposited data

Results flagged for a closer look

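Both results were marked because 1 array lay far from the other 3 of its group, by the gap to its neighbour over the range of the group. Of 80 groups of 4 arrays and measures examined, 2 were marked, and chance marks about 1 in 20. Nr1d2 in C57BL/6 sham 1 month replicate 1 was at 10.13, against 10.51 to 10.56 in the other sham glands (gap over range 0.89). Dbp minus Arntl in the same array was 2.16, against 3.12 to 3.30 in the others (0.849). With this array left out, the Dbp log2 fold change of C57BL/6 HD against sham glands at 1 month was 1.25 (limma adjusted p = 0.0897), and 2 of the 16 member probe sets passed.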

How the results depend on the processing

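The log2 fold changes of members in C57BL/6 HD against sham glands at 1 month kept their direction under the alternatives, except that with the plate column as a covariate Npas2 1421036_at was at 0.29 and Per3 1421086_at at −0.11, neither past the threshold. Of the counts of members called, the 5 in that comparison became 3 with the replicate block, 0 with the plate column and 0 without the arrays holding transcripts of another tissue, and ranged from 2 to 6 with 1 array left out. The 1 of BALB/c HD against sham at 4 hr became 0 with the replicate block, with only the groups compared, with all 43 arrays in one fit, with array weights, with the filter on dim probe sets (12246 kept, 10 of them members), with the plate column and without the arrays holding other tissue, and ranged from 0 to 3 with 1 array left out. The 1 of BALB/c HD against LD at 4 hr became 0 with quantile normalisation, with the plate column and without the arrays holding other tissue (0 to 1 with 1 array left out). The 1 of C57BL/6 sham glands at 1 month against 4 hr became 2 with all 43 arrays, 2 with the dim filter and 0 without the arrays holding other tissue (0 to 1 with 1 array left out). C57BL/6 HD against LD at 1 month, with 0, had 2 with all 43 arrays. C57BL/6 HD against sham at 4 hr ranged from 0 to 1 with 1 array left out, and the sham strain comparison from 0 to 4 (4 without BALB/c sham 4 hr replicate 2). The cause of these changes was not tested. Of all 396 counts recomputed, 352 stayed within 1.5 times the main count. Most of these were a main count of 0 that stayed at 0. With 1 array left out, the nonzero counts of BALB/c at 4 hr moved further in 7 of 7 fits (HD against sham) and 7 of 8 (HD against LD). Those of C57BL/6 did so in 7 of 8 fits (HD against sham at 1 month) and 3 of 7 (sham glands at 1 month against 4 hr). Per2 1417602_at, missed at 0.0524, passed in C57BL/6 HD against sham at 1 month with only the groups compared (limma adjusted p = 0.0206), all 43 arrays (0.0194), array weights (0.0396), quantile normalisation (0.0495) and the dim filter (0.0365). The r of Arntl and Dbp ran from −0.83 to −0.65 in BALB/c and from −0.80 to −0.69 in C57BL/6, and passed, as deviations from group means, with the mean of a gene's probe sets, with quantile normalisation and without the arrays holding other tissue. Single arrays were not left out for r, and without the 2 arrays farthest in Arntl it was −0.36 in BALB/c. Counts of all probe sets called moved with the fit too: C57BL/6 HD against sham at 1 month called 207 in all, 61 with only the groups compared, 414 with all 43 arrays, 360 with array weights, 424 with the dim filter, 0 with the plate column, 0 without the arrays holding other tissue, and 16 to 515 with 1 array left out. BALB/c HD against sham at 4 hr called 1162, against 321 with only its groups, 527 without the arrays holding other tissue and 26 with the plate column.

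The replicate numbers did not pair the arrays. In BALB/c the residuals of same-numbered arrays had a mean correlation of 0.0145, and those of other arrays −0.0052. In C57BL/6 the means were 0.0124 and −0.0041. With the replicate block Nr1d2 1416959_at (limma adjusted p = 0.0514) and Per3 1421087_at (0.0531) missed the threshold.

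Arrays with 4, 3 or 2 mice per group limit the precision, and some member probe sets (both of Npas2, Per2 1417603_at, Per3 1421086_at) lie below the median of every MG array. Arntl lies below the array median too, except in C57BL/6 LD 4 hr replicate 1, where it read 6.55. Within a strain and time, treatment and plate column nearly coincide, while HD and LD arrays exchange their column ranges between times. Strain and plate coincide fully.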

Other observations

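The 8 blood arrays came from unirradiated mice of 9 weeks, 4 of each strain, and belong to no comparison above. Values are on the scale of the blood arrays, as lowest, median and highest of 4. Dbp was at 4.01, 4.13 and 4.34 in BALB/c and at 3.90, 4.05 and 4.47 in C57BL/6, and Arntl at 5.37, 5.50 and 5.66 in BALB/c and at 5.29, 5.44 and 6.85 in C57BL/6. Nr1d2 was at 6.51, 7.24 and 8.29 in BALB/c and at 6.69, 6.96 and 7.44 in C57BL/6, with ranges that overlapped. A single C57BL/6 array held the highest value of Arntl, Clock (6.10) and Npas2 (4.74) of all 8.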
